A study of Mus musculus with 22 samples.

Results

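The miR-183 cluster is a group of 3 hairpins on mouse chromosome 6 whose 5p products, mmu-miR-183-5p, mmu-miR-96-5p and mmu-miR-182-5p, were taken by name from the miRNA count table of RS, round spermatids, which are haploid germ cells formed by meiosis. These 3 names were members of a table of 1966 mature miRNA names, of which 1134 had at least 1 count. RS were isolated by sedimentation from the testes of mice 75 to 85 days old, and small RNA was sequenced from 22 samples in 2 experimental batches. Batch 1 held 5 WT and 5 GRTH-KO samples, and batch 2 held 6 WT and 6 GRTH-KI samples. GRTH-KO mice lack GRTH/DDX25, a testis RNA helicase, and GRTH-KI mice carry a GRTH with an arginine-to-histidine change and lack its phosphorylated form. Spermatids of both mutants stop developing at the round stage. KO and KI were therefore each compared with the WT samples of their own batch, and a level in KO cannot be told apart from batch when set directly beside a level in KI. The labels do not say whether each library came from 1 mouse.

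The hairpins of the cluster are known to be cut from a shared primary transcript by Drosha, and Dicer then releases a short duplex from each hairpin. One strand of the duplex is loaded into an Argonaute protein, and its seed, the bases near the 5′ end, pairs with target mRNAs. The cluster is best known from sensory organs, where the 3 miRNAs are abundant in photoreceptors and hair cells and where seed mutations of miR-96 cause hearing loss. Because a mature miRNA can be trimmed, stabilized or degraded on its own, products of a shared transcript need not be present at equal levels.

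The mature 5p sequences are shown because they give the members' relation to each other, with the seed (bases 2 to 8) in capitals. They were taken from RefSeq on GRCm38.p6, at the same coordinates as the deposited table, and all 3 names matched.
mmu-miR-183-5p: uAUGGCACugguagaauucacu
mmu-miR-96-5p: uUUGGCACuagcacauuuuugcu
mmu-miR-182-5p: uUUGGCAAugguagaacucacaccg

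All 3 seeds hold UGGCA at bases 3 to 7, and no pair of members has the same full seed. Counted from the 5′ end, the seed of miR-183-5p differs from that of miR-96-5p by A2U and from that of miR-182-5p by A2U and C8A. The seeds of miR-96-5p and miR-182-5p differ by C8A. Over the whole mature sequence, seed included and aligned from the 5′ end without gaps, the order of likeness was another one than in the seeds. miR-183-5p and miR-182-5p were identical at 18 of 22 positions (81.8%), miR-183-5p and miR-96-5p at 13 of 22 (59.1%), and miR-96-5p and miR-182-5p at 12 of 23 (52.2%). Among 1679 mature names of the RefSeq table, the full seed of miR-96-5p was found in 1 further name, miR-1271-5p, whose sequence shows where the relation ends.
mmu-miR-1271-5p: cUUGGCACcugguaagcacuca

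miR-1271-5p was listed with 0 counts in all 22 libraries, so among the names with a RefSeq sequence miR-96-5p was the only one detected with its seed.

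In GRCm38 the 3 mature products lie on the minus strand, each at a single position. miR-183-5p is at chr6:30169711-30169732, miR-96-5p at chr6:30169506-30169528 and miR-182-5p at chr6:30165962-30165986. In the GENCODE vM21 annotation each lies in the exon of its own miRNA gene (Mir183, Mir96 and Mir182) and in no other gene. Read along the strand the order is Mir183, Mir96 and Mir182, with 116 bases between the first pair of hairpins, 3453 bases between Mir96 and Mir182, and 3820 bases for the whole. Apart from the 3p products of the same hairpins, 0 other names of the table lay within 10000 bases on this strand. The nearest other genes are the lincRNA Rncr4 at 3161 bases and Nrf1 at 12465 bases, both on the plus strand, and the gene Gm25580 (type misc_RNA) at 21796 bases on the minus strand. The nearest protein-coding gene on the strand of the cluster is Ube2h, at 41557 bases.

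The 3p products are shown because the hairpins were represented in these libraries almost only by their 5p strand.
mmu-miR-183-3p: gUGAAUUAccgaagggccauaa
mmu-miR-96-3p: cAAUCAUGuguagugccaauau
mmu-miR-182-3p: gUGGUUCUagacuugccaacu

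Over all 22 libraries miR-183-5p had 6592 counts and miR-183-3p had 1. miR-96-5p had 6119 counts and miR-96-3p had 3, and miR-182-5p had 9191 counts and miR-182-3p had 5. No library held more than 1 count of a 3p product, which is under the 3 counts taken as the smallest amount that a library can show. A 5p to 3p ratio required a mean of at least 10 counts of the 3p product per library in both groups, so none was tested. The 5p products were counted in 22 of 22 libraries, with 122 to 643 counts of miR-183-5p, 97 to 575 of miR-96-5p and 161 to 872 of miR-182-5p per library.

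Total counts per library were 870913 to 1081333 in WT and 559957 to 881323 in KO of batch 1, and 2067322 to 3239357 in WT and 2107461 to 3101145 in KI of batch 2. The smallest amount of 3 counts corresponded to 0.926 CPM in the deepest library and 5.36 CPM in the shallowest. CPM are counts relative to a common library total, scaled by TMM, a factor that sets most miRNAs equal between libraries. A read covers a whole mature miRNA, so levels were not divided by length, and how well each sequence was captured was not measured. The list of germ cell miRNAs that appear from meiosis on holds the miR-34b, miR-34c and miR-449 group. It summed to 170000 to 420000 CPM over all libraries. In WT it differed between the batches, with 195000 to 239000 CPM in batch 1 and 365000 to 420000 CPM in batch 2. The list of X-linked testis miRNAs of spermatocytes summed to 20400 to 30100 CPM over all libraries. The blood list was at 2950 to 6090 CPM and the endothelial and stromal list at 637 to 3800 CPM. The epithelial list was at 378 to 786 CPM, the spermatogonial list at 55.4 to 132 CPM and the muscle list at 8.1 to 758 CPM.

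The cluster was a minor component of the RS miRNAs, and miR-182-5p was its most abundant product in every group. By mean level over all libraries miR-182-5p stood at rank 137, miR-183-5p at rank 154 and miR-96-5p at rank 157. The 3 members together held 0.0824% ± 0.00414 (SD, n = 5) of all counts in WT of batch 1 and 0.0569% ± 0.0052 (SD, n = 6) in WT of batch 2. Their shares of the cluster's counts in WT of batch 1 were 37.2% ± 1.43 for miR-182-5p, 34.0% ± 2.4 for miR-96-5p and 28.8% ± 2.24 for miR-183-5p (SD, n = 5). In WT of batch 2 the order of the lower pair was turned, with 42.7% ± 1.46 for miR-182-5p, 30.6% ± 1.14 for miR-183-5p and 26.7% ± 2.34 for miR-96-5p (SD, n = 6).

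**Figure D1:**
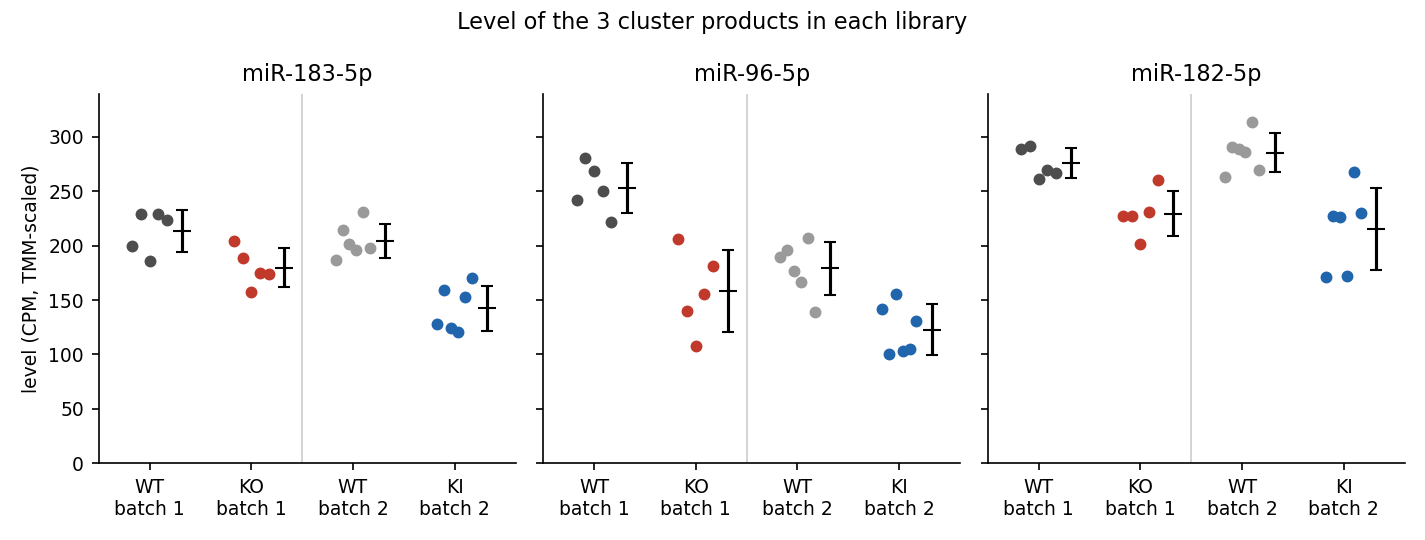
Level of each cluster product in CPM (TMM-scaled, axis from 0) in every library (points) of WT and KO in batch 1 and of WT and KI in batch 2, with the group mean and SD to the right of the points. miR-182-5p is the highest of the 3 in every group, between 216 CPM on average in KI and 285 CPM in WT of batch 2, and miR-96-5p falls from 253 to 179 CPM between the WT groups.

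In KO, miR-96-5p and miR-182-5p fell relative to WT. miR-96-5p fell by 36.6%. miR-182-5p fell by 15.4%. The difference of miR-183-5p, -14.2%, did not pass the test. Of the 334 miRNAs tested, 20.7% were called lower and 11.7% were lower with no overlap between the groups. The members stood at 2 of 3 for both counts. No test of that share was made. Scaled by library size alone, calls moved from 71 higher and 69 lower to 101 higher and 44 lower.

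miR-96-5p, the middle hairpin of the cluster, was at 242, 281, 269, 250 and 222 CPM in the WT libraries of batch 1. In KO it was at 206, 140, 108, 156 and 181 CPM. Every KO library was below every WT library, and the KO libraries were more widely spread. The log2 fold change was -0.66 (SE 0.148, 95% interval -0.98 to -0.34, edgeR quasi-likelihood test with Benjamini-Hochberg adjustment, adjusted p = 0.00759). Of all miRNAs tested for KO, 4.19% had a lower log2 fold change. The coefficient of variation was 23.8% in KO against 8.86% from counting alone, and 9.19% in WT against 6.07% from counting. This comparison was added after the values had been seen. For miR-183-5p and miR-182-5p it was 9.75% and 8.97% in KO, against 9.16% and 5.07% in WT of batch 1. In KI it was 14.6% for miR-183-5p, 19.1% for miR-96-5p and 17.4% for miR-182-5p, against 7.64%, 13.6% and 6.17% in WT of batch 2.

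miR-182-5p, the last hairpin along the strand, was at 289, 292, 261, 270 and 267 CPM in WT and at 227, 227, 202, 231 and 260 CPM in KO. The highest KO library lay just under the lowest WT library. The log2 fold change was -0.24 (SE 0.0886, 95% interval -0.43 to -0.05, edgeR adjusted p = 0.0563), and 26% of the miRNAs tested had a lower one. This call was lost with scaling by library size alone (-0.13, edgeR adjusted p = 0.262), without a filter on low counts (-0.30, adjusted p = 0.163), and without WT replicate 1 (-0.23, adjusted p = 0.117) or WT replicate 2 (-0.22, adjusted p = 0.104).

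miR-183-5p, the first hairpin along the strand, was at 200, 229, 186, 229 and 224 CPM in WT and at 204, 189, 157, 175 and 174 CPM in KO. The groups overlapped, with 3 of 5 KO libraries below the lowest WT library. The log2 fold change of -0.22 (SE 0.0992, 95% interval -0.44 to -0.01) had an edgeR adjusted p of 0.105, just above the threshold of 0.1. It passed without KO replicate 1 (-0.27, edgeR adjusted p = 0.0773), without WT replicate 3 (-0.27, adjusted p = 0.0884), with a filter at a mean of 10 CPM (-0.23, adjusted p = 0.0854) and in 1 fit of all 4 groups (-0.25, adjusted p = 0.0938), and was -0.11 (adjusted p = 0.407) with scaling by library size alone.

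Among all miRNAs tested for KO, scaling by library size alone moved the median log2 fold change from 0.01 to 0.13. Relative to that median, the KO change was -0.24 for miR-183-5p and -0.26 for miR-182-5p under both scalings, and -0.67 by TMM against -0.68 by library size for miR-96-5p. A change of scaling moves all miRNAs by nearly the same amount. This agreement was therefore built in, and it does not show that the calls hold under both scalings. The sum of the 3 members went from 742 ± 36.8 CPM in WT to 567 ± 65.7 CPM in KO (SD, n = 5 each), with libraries at 712 to 803 CPM and 468 to 638 CPM.

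In KI, all 3 members were lower than in WT. miR-96-5p changed by -30.6%, miR-183-5p by -29.4% and miR-182-5p by -23.3%, and each passed the test. Of the 387 miRNAs tested, 19.9% were called lower and 8.79% were lower with no overlap between the groups. The members were called lower at 3 of 3 and lay apart without overlap at 1 of 3. Scaled by library size alone, calls moved from 70 higher and 77 lower to 96 higher and 53 lower, and the 3 members stayed called.

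miR-183-5p was at 187 to 231 CPM in the WT libraries of batch 2, with a median of 200 CPM, and at 121 to 170 CPM in KI, with a median of 141 CPM. No KI library reached the lowest WT library. The log2 fold change was -0.50 (SE 0.107, 95% interval -0.73 to -0.27, edgeR adjusted p = 0.00315), and 6.72% of the miRNAs tested for KI had a lower one.

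miR-96-5p was at 139 to 207 CPM in WT (median 184 CPM) and at 100 to 156 CPM in KI (median 118 CPM). The groups overlapped, and 4 of 6 KI libraries were below the lowest WT library. The log2 fold change was -0.53 (SE 0.128, 95% interval -0.80 to -0.25, edgeR adjusted p = 0.00724), with 5.68% of the miRNAs tested at a lower value.

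miR-182-5p was at 263 to 314 CPM in WT (median 287 CPM) and at 171 to 268 CPM in KI (median 226 CPM). All but 1 of the KI libraries lay below the WT range, and replicate 5 reached into it with 268 CPM. The log2 fold change was -0.38 (SE 0.12, 95% interval -0.64 to -0.13, edgeR adjusted p = 0.0253), with 12.1% of the miRNAs tested at a lower value. The sum of the 3 members went from 669 ± 50.7 CPM in WT to 481 ± 53.2 CPM in KI (SD, n = 6 each), with ranges of 607 to 752 CPM and 395 to 531 CPM.

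**Figure D2:**
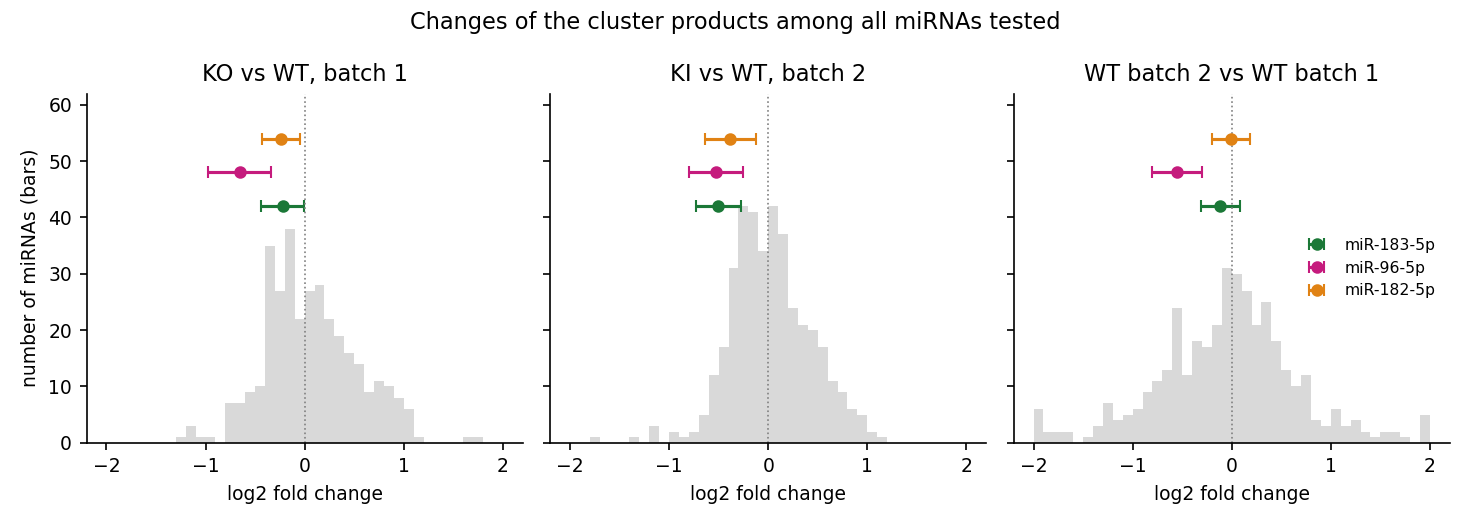
Log2 fold changes of the cluster products in KO against WT, KI against WT and WT of batch 2 against WT of batch 1 (points with 95% intervals, at heights set for legibility), above grey bars that count all miRNAs tested in bins of log2 fold change, with values beyond 2 in either direction drawn at the edge. miR-96-5p lies left of 0 in all 3 panels, with -0.66, -0.53 and -0.55, and miR-182-5p lies at -0.01 between the WT groups.

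Between both mutants, 41 of the 329 miRNAs tested in both fits were called lower in both, miR-96-5p and miR-182-5p among them. To ask whether KO and KI had unequal effects, their fold changes against WT were set against each other with all 22 libraries fitted together, and 0.0% of the 421 miRNAs tested were called. With edgeR 67 of them had an unadjusted p under 0.05, and DESeq2 also called 0. Without KI replicate 2 the count was 26, and without WT replicate 1 of batch 2 it was 1. For the members the KO minus KI difference in log2 fold change was 0.28 for miR-183-5p (95% interval -0.02 to 0.58, edgeR adjusted p = 0.373), 0.14 for miR-182-5p (-0.16 to 0.44, adjusted p = 0.664) and -0.13 for miR-96-5p (-0.56 to 0.29, adjusted p = 0.782). The call of miR-183-5p in KI and not in KO was therefore not shown to be a difference between the mutants.

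The WT groups served to show how far levels could be compared across batches, and they differed for 1 of the 3 members. Of 383 miRNAs tested, 29.8% were called lower in batch 2 and 18.5% were lower with no overlap. miR-96-5p was lower in WT of batch 2 by a log2 fold change of -0.55 (SE 0.117, 95% interval -0.80 to -0.30, edgeR adjusted p = 0.00097), and its 6 libraries lay below the 5 of batch 1. miR-183-5p (-0.11, interval -0.31 to 0.08, edgeR adjusted p = 0.329) and miR-182-5p (-0.01, interval -0.20 to 0.18, adjusted p = 0.96) did not pass the test, and their groups overlapped. Without WT replicate 5 of batch 2 the value of miR-183-5p passed (-0.20, edgeR adjusted p = 0.0943). Scaled by library size alone, calls went from 103 higher and 114 lower to 47 higher and 193 lower, the median of all miRNAs tested moved from -0.01 to -0.34, and all 3 members were called lower in batch 2. Relative to that median the members stood at -0.10 for miR-183-5p, -0.54 for miR-96-5p and 0.01 for miR-182-5p, values that by construction hardly depend on the scaling.

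In order of mean level, miR-183-5p stood at 213 ± 19.6 CPM in WT of batch 1, 205 ± 15.6 in WT of batch 2, 180 ± 17.5 in KO and 142 ± 20.8 in KI. miR-96-5p stood at 253 ± 23.2, 179 ± 24.4, 158 ± 37.6 and 123 ± 23.4 CPM in the same order of groups. miR-182-5p stood at 285 ± 17.6 CPM in WT of batch 2, 276 ± 14 in WT of batch 1, 229 ± 20.6 in KO and 216 ± 37.6 in KI (SD, n = 5 in batch 1 and 6 in batch 2). The neighbours that did not differ by the tests were the WT groups for miR-183-5p and miR-182-5p. KO next to either a WT or a KI group of batch 2 was not tested. For miR-96-5p the mean of WT in batch 2 was closer to KO than to WT of batch 1.

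Ratios between members were formed within each library, where library scaling cancels, to ask whether the products changed together. In KO the ratio of miR-96-5p to both of its neighbours was lower than in WT, and the ratio of the outer hairpins' products was nearly the same. Differences of mean log2 ratio (0.5 counts added) were tested with two-sided exact permutation tests and adjusted over 9 tests.

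The counts of miR-96-5p per count of miR-183-5p were 1.21, 1.23, 1.45, 1.09 and 0.992 in WT and 1.01, 0.742, 0.689, 0.894 and 1.04 in KO of batch 1. The ranges overlapped. The log2 difference was -0.45 (SE 0.149, exact permutation p = 0.0238, adjusted p = 0.0536), from a mean ratio of 1.18 to 0.864.

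The counts of miR-96-5p per count of miR-182-5p were 0.836, 0.964, 1.03, 0.928 and 0.831 in WT and 0.909, 0.618, 0.537, 0.678 and 0.696 in KO. KO replicate 1 lay inside the WT range and the other KO libraries lay below it. The log2 difference was -0.43 (SE 0.138, exact permutation p = 0.0238, adjusted p = 0.0536), from a mean ratio of 0.914 to 0.677. For each of these ratios the adjusted p stayed under 0.1 in 3 of the 10 fits that left out 1 library and was 0.107 in the others. The ratio of miR-182-5p to miR-183-5p was 1.3 in WT and 1.28 in KO (log2 difference -0.02, SE 0.0928, exact permutation p = 0.825, adjusted p = 0.892).

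In KI none of the 3 ratios passed the test. miR-96-5p to miR-183-5p was 0.871 in WT and 0.857 in KI (log2 difference -0.02, SE 0.174, exact permutation p = 0.892, adjusted p = 0.892). The KI libraries were widely spread, with 1.1 and 1.26 in replicates 1 and 3 and 0.63 to 0.851 in the others. miR-96-5p to miR-182-5p differed by -0.14 on the log2 scale (SE 0.178, exact permutation p = 0.468, adjusted p = 0.601) and miR-182-5p to miR-183-5p by 0.11 (SE 0.081, exact permutation p = 0.305, adjusted p = 0.458).

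Between the WT groups the ratios with miR-96-5p in them differed as they did between KO and WT. In batch 2 miR-96-5p was lower relative to miR-183-5p by a log2 difference of -0.44 (SE 0.116, exact permutation p = 0.00866, adjusted p = 0.039) and relative to miR-182-5p by -0.55 (SE 0.0932, exact permutation p = 0.00433, adjusted p = 0.039). The latter ratio did not overlap, at 0.831 to 1.03 in batch 1 and 0.513 to 0.724 in batch 2. miR-182-5p to miR-183-5p differed by 0.11 (SE 0.0626, exact permutation p = 0.104, adjusted p = 0.187), and this passed 0.1 without WT replicate 1 of batch 1 (0.15, exact permutation, adjusted p = 0.0857). KO and WT of batch 1 were in the same batch, and the WT libraries of batch 1 enter both comparisons.

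**Figure D3:**
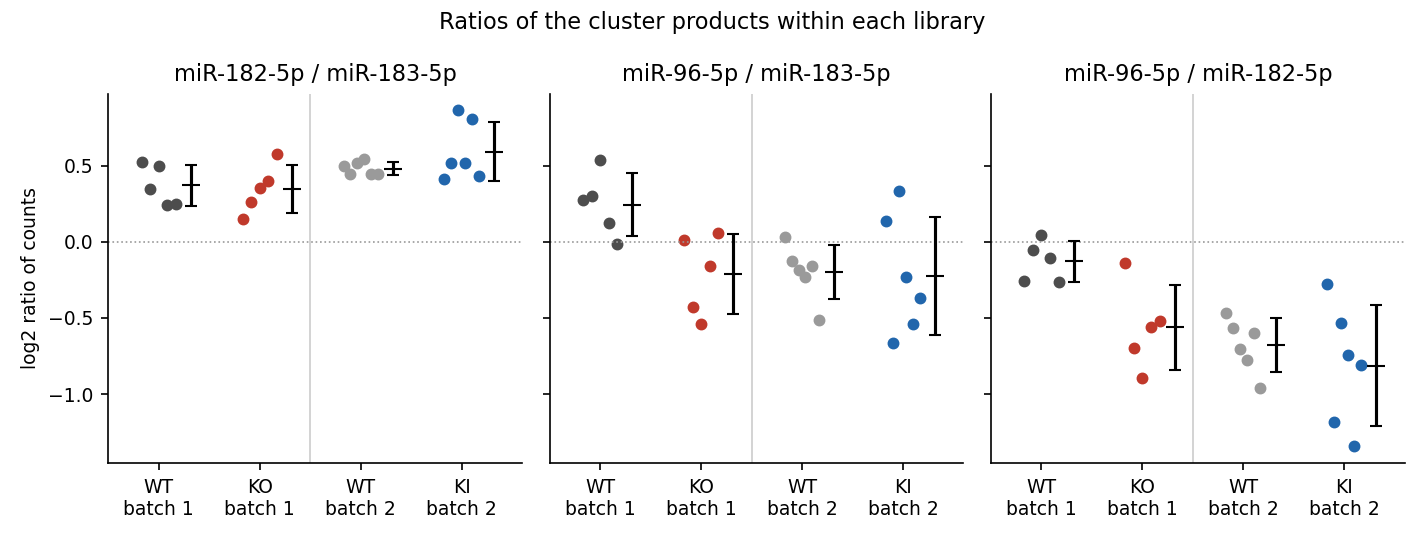
Log2 ratio of counts for each pair of cluster products (panels) in each library (points) by group, with mean and SD beside each group. Both ratios with miR-96-5p are highest in WT of batch 1, where miR-96-5p to miR-182-5p averages 0.914 against 0.677 in KO, 0.624 in WT of batch 2 and 0.568 in KI, and the KI libraries are the most widely spread.

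Whether the KO effect on a ratio differed from the KI effect was tested by permuting genotype within batch (232848 exact permutations, 3 tests), a test added after the ratios had been seen. The difference was -0.43 for miR-96-5p to miR-183-5p (SE 0.23, exact permutation p = 0.106, adjusted p = 0.284), -0.30 for miR-96-5p to miR-182-5p (SE 0.225, exact p = 0.262, adjusted p = 0.284) and -0.13 for miR-182-5p to miR-183-5p (SE 0.123, exact p = 0.284, adjusted p = 0.284). None passed, so the shift of miR-96-5p within the cluster was not shown to be particular to KO.

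Across the 22 libraries, with the batch mean of log2(CPM + 1) removed, miR-182-5p and miR-183-5p followed each other more closely than either followed miR-96-5p. Pearson's r was 0.847 for miR-182-5p with miR-183-5p, 0.669 for miR-96-5p with miR-182-5p and 0.659 for miR-96-5p with miR-183-5p. Of the 50086 pairs among 317 miRNAs on the same measure, 0.892%, 5.35% and 5.7% were at or above these values. These points share genotype, and with the mean of each of the 4 groups removed r was 0.583, 0.199 and 0.164 in the same order of pairs, with 5.51%, 30.5% and 33.8% of all pairs at or above them. The values describe these libraries, which also share their scaling, and were not tested.

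**Figure D4:**
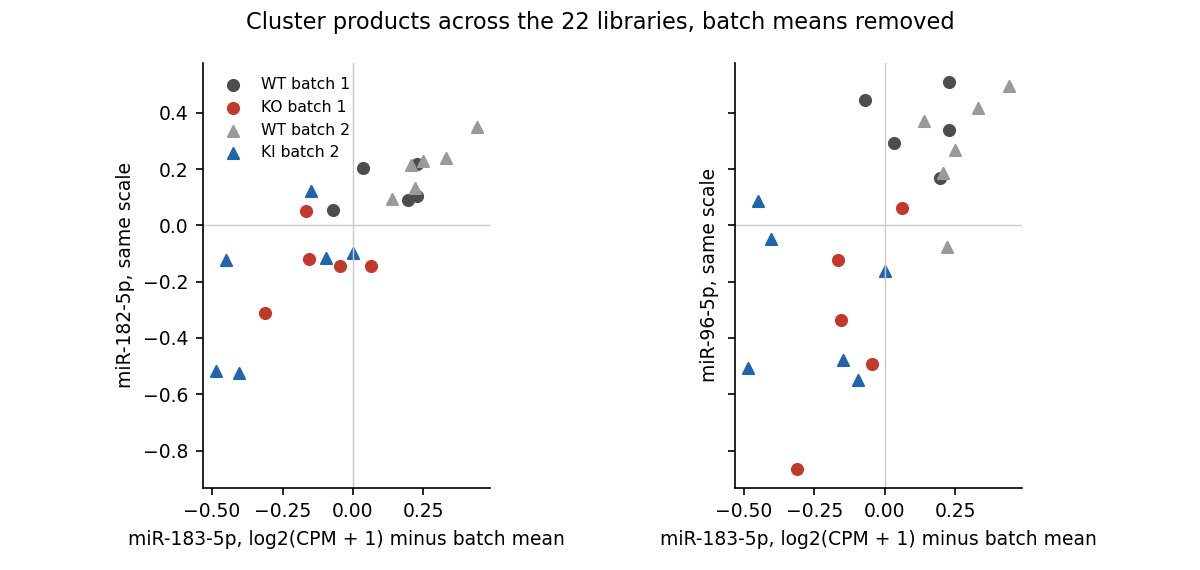
Level of miR-182-5p (left) and miR-96-5p (right) against miR-183-5p in the 22 libraries, on the log2(CPM + 1) scale with the mean of each batch removed, with circles for batch 1 and triangles for batch 2. WT libraries lie towards the upper right and mutant libraries towards the lower left, and r is 0.847 on the left and 0.659 on the right.

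By the same measure, the miRNAs outside the cluster most like miR-183-5p were miR-743a-3p (r = 0.887), miR-103-3p (0.878) and miR-146b-5p (0.848). Those most like miR-182-5p were miR-743a-3p (0.784), miR-103-3p (0.77) and miR-465b-3p (0.77), and those most like miR-96-5p were miR-148b-3p (0.877), miR-881-3p (0.876) and miR-741-3p (0.865). Among these 3 names per member, those of the outer members were shared in part, and those of miR-96-5p were other ones. How closely miR-96-5p followed the names listed for the outer members was not compared. Removing the batch mean keeps the difference between genotypes, so fold changes like those of the members were in part built into this choice. In KO, miR-743a-3p changed by a log2 fold change of -0.23 (edgeR adjusted p = 0.0132) and miR-103-3p by -0.19 (adjusted p = 0.0149), while miR-881-3p changed by -0.47 (adjusted p = 0.00183) and miR-741-3p by -0.38 (adjusted p = 0.00161). Scaled by library size alone, the KO calls of miR-743a-3p (-0.12, edgeR adjusted p = 0.174) and miR-103-3p (-0.07, adjusted p = 0.351) were lost. In KI the same 4 changed by -0.47 (edgeR adjusted p = 0.00252), -0.27 (0.0182), -0.33 (0.00472) and -0.41 (1.17e-05), and the call of miR-103-3p was lost without KI replicate 1 (-0.19, edgeR adjusted p = 0.115). miR-146b-5p did not pass in KO (-0.08, edgeR adjusted p = 0.48; 0.03 by library size) and was lower in KI (-0.28, adjusted p = 0.0182). miR-148b-3p and miR-465b-3p were lower in both, with -0.33 (edgeR adjusted p = 0.0136) and -0.36 (0.00171) in KO and -0.24 (0.00431) and -0.34 (3.69e-05) in KI.

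miR-741-3p and miR-743a-3p belong to a list of 8 X-linked testis miRNAs of spermatocytes, and this list moved with the cluster. Of its 8 members, 7 were called lower in KO (4 lower and 1 higher with scaling by library size alone) and 8 in KI (7 with that scaling). Their summed level was 26600 to 29800 CPM in WT and 21200 to 22700 CPM in KO of batch 1, and 26800 to 30100 CPM in WT and 20400 to 22100 CPM in KI of batch 2. miR-741-3p and miR-743a-3p, at means of 11400 and 2750 CPM over all libraries, had been named for their likeness to members. Their share of the calls and of the fall in the sum was therefore in part built in. The endothelial and stromal list moved the other way, with 3 of 4 tested members called higher in KO and 3 of 4 in KI, and sums of 637 to 1710, 1580 to 3220, 1160 to 1930 and 1770 to 3800 CPM in WT and KO of batch 1 and WT and KI of batch 2. On the blood list 2 of 6 tested members were called higher in KO and 4 of 6 in KI, with sums of 4050 to 5120, 4350 to 6090, 2950 to 3970 and 3640 to 5910 CPM in the same order. On the epithelial list 2 of 5 were called lower in each mutant, with sums of 378 to 670, 397 to 621, 585 to 786 and 537 to 685 CPM, while 1 of 6 of the list from meiosis on was called higher and 2 lower in KO and 1 lower in KI. Scaled by library size alone, 2 members of that list were called higher and 0 lower in each mutant, and DESeq2 called 1 higher and 0 lower in KO. Of the spermatogonial list 0 of 2 were called in KO and 1 of 3 was higher in KI, and of the muscle list 1 of 1 was higher in KO and 0 of 2 in KI. Over all miRNAs tested, 71 of 334 were called higher and 69 (20.7%) lower in KO, and 70 of 387 higher and 77 (19.9%) lower in KI. No list was tested against these shares, and several of the counts are small. In these samples fewer cells of a type and less RNA per cell cannot be told apart, and the part of these lists in the cluster's decrease was not tested.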

How the data were processed

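Small RNA was sequenced by the authors from RS of WT, KO and KI mice. The deposited table holds counts, given as integers for each mature name in each library. Per the submitters' processing notes, the methods of the study and the file header, the authors trimmed adapters with cutadapt 3.4, checked reads with FastQC 0.11.9, aligned them to GRCm38 with Bowtie2 2.4.2 in local mode with many alignments reported per read, handled files with SAMtools 1.12, and counted strand-specifically on miRBase names with featureCounts of Subread 2.0.1. The column headers name alignments with duplicates marked (markdups), and the effect of this on the counts was not examined. No use of molecular identifiers is stated in the sources used here, so floors and counting errors cover counting error only. Each member has 1 locus in the table, and the number of unused sample columns was 0.

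Counts were tested in R 4.3.3 with edgeR 4.0.16 (quasi-likelihood test), using TMM scaling, filterByExpr and Benjamini-Hochberg adjustment over all miRNAs tested, and called where the adjusted p was under 0.1, as in the study. KO and KI were each fitted with the WT samples of their batch, the WT groups with each other, and the difference of the effects with all 4 groups. DESeq2 1.42.0, which the study used, was an alternative. The methods put the KI comparison in the first batch and the KO comparison in the second, and the labels' order was followed here. Ratios and figures were made with Python 3.11.15, numpy 2.4.6, pandas 2.3.3, scipy 1.17.1 and matplotlib 3.10.9. In simulated counts, 200 miRNAs were given a log2 fold change of 1, and those found were 96% in the KO fit of 334 miRNAs, 95% in the KI fit of 387, 96% in the WT fit of 383 and 84% in the 4-group fit of 421. Of the calls, 5.4%, 4%, 5.9% and 9.7% were false in the same order. Smaller changes, such as those of the members, were not simulated, so these shares do not give the power to find them. The labels do not say whether replicates came from separate animals. The p-values therefore weigh a group difference against the spread between these samples, which need not be that between animals. No pair of replicates agreed within sampling noise (chi-square per degree of freedom of at least 7.28).

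The members and lists were chosen with earlier results of these data known. The miRNAs named besides the members and their 3p products are those with a member's seed, those within 10000 bases on the same strand, and the 3 most like each member by Pearson's r of batch-centred log2(CPM + 1), among miRNAs tested in both the KO and the KI fit with a mean of at least 10 CPM. Marker lists are given as counts. Replicate numbers come from the titles, which do not say what a shared number means.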

Additional observations from a re-analysis of the deposited data

How the results depend on the processing

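Over 438 alternatives for 25 results, 389 kept the direction and the side of the threshold. The decreases of miR-96-5p in KO, in KI and between the WT groups, and those of miR-183-5p and miR-182-5p in KI, were kept in all alternatives run, with adjusted p up to 0.0194 without 1 library for miR-96-5p in KO and 0.0979 for miR-182-5p in KI (edgeR). The titles do not say what a shared replicate number means, and a check on the levels did not settle whether it pairs samples. Deviations of same-numbered samples had r of -0.112 to 0.177 in batch 1 (2 of 5 best with their own number) and -0.109 to 0.519 in batch 2 (3 of 6). With the replicate block, miR-182-5p in KO was -0.24 (edgeR adjusted p = 0.126), the ratios of miR-96-5p to miR-183-5p and to miR-182-5p in KO were -0.455 and -0.433 (paired exact permutation, adjusted p = 0.225 each), calls were 124 in KO and 165 in KI, and 25 miRNAs were called for the difference of the effects. The block changed no other call of a member.

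In KO, miR-183-5p was -0.23 with the filter at 10 CPM and -0.247 in the fit of all groups, and miR-182-5p was -0.132 by library size and -0.296 without the filter. Between the WT groups, miR-182-5p was 0.0136 with DESeq2 size factors, 0.0313 with DESeq2, 0.0857 without the filter, 0.0493 in the fit of all groups and -0.334 by library size, and miR-183-5p was -0.445 by library size. Leaving out 1 library at a time gave -0.266 to -0.189 for miR-183-5p and -0.293 to -0.213 for miR-182-5p in KO, -0.198 to -0.0706 and -0.0776 to 0.0314 for these between the WT groups, and -0.0255 to 0.209 for miR-182-5p in the difference of the effects. That difference gave 0 to 26 calls, 26 without KI replicate 2 and 1 without WT replicate 1 of batch 2. For ratios it gave -0.522 to -0.373 (miR-96-5p to miR-183-5p) and -0.539 to -0.35 (miR-96-5p to miR-182-5p) in KO, -0.0788 to 0.0275 (miR-182-5p to miR-183-5p) in KO and 0.0743 to 0.147 between the WT groups, and -0.134 to 0.0645 (miR-96-5p to miR-183-5p) in KI. Of 252 alternatives for the other named miRNAs 248 were kept, and miR-146b-5p in KO turned to 0.0272 by library size. The causes were not tested. The 3p products stayed under 3 counts per library and under the mean of 10 counts required for a ratio. The 5p to 3p ratios and their alternatives were therefore not run.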
